A study of Mus musculus with 6 samples.

Results

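The genes described here make, move and sense cholesterol, and they were followed in fetal mouse lungs with and without a Cre transgene meant to delete Nfib in mesenchyme. The list named 31 genes of the mevalonate and sterol steps, of control by sterol regulatory element binding protein 2 (SREBP2), and of sterol uptake and efflux. A gene was followed through the probe sets, the groups of short probes for 1 transcript, whose annotation gave its symbol alone. Of the 31 genes, 28 had such a probe set, among 18193 genes so named on the array, and Acat2, Soat1 and Nr1h2 had none and were not analysed here. The 28 genes had 60 probe sets, of which 49 passed a filter on low signal, and each of the 28 genes kept at least its brightest, which stood for it.

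The Cre-labelled group held 3 lungs labelled Nfib f/f, Dermo1-Cre and the control-labelled group 3 lungs labelled Nfib f/f, all taken at E18.5, shortly before birth, with 1 array for each animal. Both groups carry the floxed Nfib alleles, and they differ by the Dermo1-Cre transgene, in which the mesenchymal gene Dermo1 (Twist2) drives Cre. RNA came from lung with its epithelium, vessels and blood, so a lower signal from fewer cells of a type and from less RNA per cell cannot be told apart. By its title the study concerned mesenchymal NFIB, cell proliferation and the differentiation of epithelium as the lung matures.

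Signals are log2 values, and a difference is the Cre-labelled mean minus the control-labelled mean, with the standard error (SE) or the 95% interval of the limma fit to 3 against 3 arrays. The median log2 signal of an array was 4.80 to 5.03, and the number of arrays limits the precision. The surfactant protein gene Sftpc, a marker of alveolar type II cells, read 12.23 to 13.52 on the 6 arrays. The brightest of 7 Nfib probe sets read 11.24, 11.16 and 11.49 in Cre-labelled lungs and 10.24, 10.32 and 10.17 in control-labelled lungs. Of the 6 Nfib probe sets tested 5 rose, and the other had -0.11 with overlapping groups (limma adjusted p = 0.71). Since the sources used here do not place the probes relative to the floxed exon, Nfib signal does not check the labels, on which every direction depends.

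Cholesterol is built from acetyl-CoA through mevalonate, isoprenoids and squalene to lanosterol, which further enzymes trim to cholesterol. When sterols in the endoplasmic reticulum run low, SCAP carries SREBP2 to the Golgi, where it is cut and released to switch on the synthesis genes, whereas the INSIG proteins hold SCAP back when sterols are plentiful. Surplus sterol activates the liver X receptors (LXR), which raise the efflux pumps. In lung, cholesterol is part of surfactant, and alveolar cells and macrophages take it up, recycle and export it.

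No member passed the threshold. The count was 0 of 28 genes at a limma adjusted p of 0.05, in a fit that called 4.96% of the 12826 genes tested (3.04% lower and 1.92% higher in Cre-labelled lungs), and 0 of 49 probe sets, where 3.56% of all 27022 were called. At an unadjusted p of 0.05, 4 of 28 genes were lower in Cre-labelled lungs and none was higher, against 12.8% lower, 10.7% higher and 23.6% in either direction among all genes. By probe set 5 of 49 were below that unadjusted level, against 19.5% of all. The 4 genes were Lss, Npc1, Abcg1 and Insig1, and the first 3 came nearest to passing, with limma adjusted p of 0.056, 0.057 and 0.061.

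The intervals bound how large a difference these arrays leave room for. On the brightest probe sets all 28 intervals, taken gene by gene, lay inside a 2-fold change in either direction, and 18 of them inside a 1.5-fold change. The interval of a dimmer Abcg1 probe set, -1.04 to 0.21, reached past 2-fold. The 10 that reached past 1.5-fold were those of Mvd, Fdps, Lss, Sc5d, Dhcr7, Srebf2, Insig1, Npc1, Abcg1 and Nr1h3. Differences ran from -0.60 for Lss to 0.46 for Dhcr7 with a median of -0.09, beside a median of -0.01 over all genes tested. The mean was lower in Cre-labelled lungs for 21 genes and higher for 7, where 51.5% of all genes tested were lower. Groups did not overlap for 5 lower genes (17.9% of the members, against 16.5% of all genes) and for 1 higher gene (3.57%, against 15.3%).

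**Figure D1:**
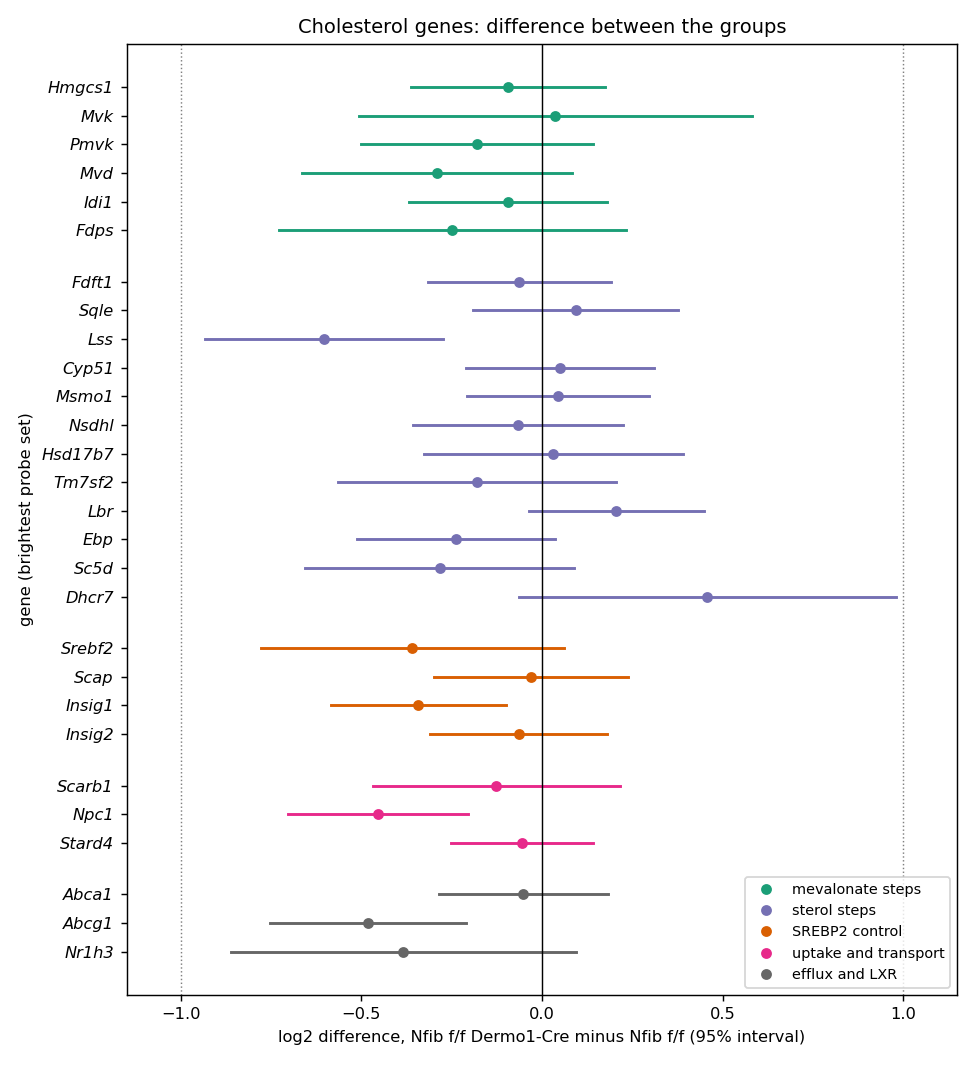
Log2 difference of the brightest probe set of each of the 28 genes, Cre-labelled minus control-labelled lungs, on the horizontal axis, with its 95% interval from the limma fit as a line and colours for the 5 groups of genes. Dotted lines mark a 2-fold change, and no interval crosses them; Lss, Insig1, Npc1 and Abcg1 are the 4 whose interval leaves out 0.

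The mevalonate steps turn acetyl-CoA units into farnesyl pyrophosphate. Of the 6 genes measured none passed, 5 had a lower mean in Cre-labelled lungs and the median difference was -0.14. Hmgcs1, which encodes the synthase that makes HMG-CoA, read 10.68, 10.94 and 11.01 in Cre-labelled lungs and 10.87, 11.03 and 11.01 in control-labelled lungs. The groups overlapped, with a difference of -0.09 (95% interval -0.36 to 0.17, limma adjusted p = 0.73). Its other 4 probe sets had differences of -0.16, 0.20, -0.10 and 0.19, so the sign differed between probe sets of this gene.

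Mvk and Pmvk, the kinases that act on mevalonate in turn, had differences of 0.04 (95% interval -0.51 to 0.58) and -0.18 (95% interval -0.50 to 0.14). Mvd, which encodes the decarboxylase that forms isopentenyl pyrophosphate, had -0.29 on both of its probe sets (limma adjusted p 0.38 and 0.35), and on the dimmer of them the 3 Cre-labelled arrays, at 5.97, 5.93 and 5.88, lay below the control-labelled ones, at 6.16, 6.27 and 6.20. Idi1, the isomerase of that product, gave -0.10 on the brighter probe set and 0.29 on the other (limma adjusted p = 0.29), where the Cre-labelled arrays, at 7.44, 7.64 and 7.87, all lay above the control-labelled ones, at 7.43, 7.42 and 7.23. For Fdps, which joins the units to farnesyl pyrophosphate, the arrays read 8.29, 8.71 and 7.74 in Cre-labelled lungs against 8.40, 8.67 and 8.42 in control-labelled lungs. Its low value was that of Cre-labelled replicate 3, without which the difference was 0.0067 in place of -0.25, whereas it was -0.48 without Cre-labelled replicate 2.

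The sterol steps start with squalene. Of 12 genes none passed, 6 had a lower and 6 a higher mean in Cre-labelled lungs, and the median difference was -0.02. Fdft1, squalene synthase, had a difference of -0.06 (95% interval -0.32 to 0.19). Sqle, squalene epoxidase and a control point of the sterol branch, read 8.80, 8.61 and 8.46 in Cre-labelled lungs and 8.45, 8.42 and 8.73 in control-labelled lungs. These overlapped, with a difference of 0.09 (95% interval -0.19 to 0.38, limma adjusted p = 0.75).

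Lss encodes lanosterol synthase, which closes the sterol rings, and had the largest difference of the members. Its brightest probe set read 5.97, 5.99 and 5.93 in Cre-labelled lungs and 6.64, 6.51 and 6.54 in control-labelled lungs. All 3 Cre-labelled values lay below all control-labelled values, and the gap between the groups exceeded the range within either. The difference was -0.60 ± 0.15 SE, a ratio of 0.66 (95% interval 0.52 to 0.83), with a limma adjusted p of 0.056. The next brightest probe set gave the same size, -0.60 ± 0.17 SE (limma adjusted p = 0.083), from 5.60, 5.45 and 5.50 in Cre-labelled lungs against 6.14, 6.09 and 6.11 in control-labelled lungs, and a dim probe set below the filter overlapped between groups. An exact permutation test of the brightest probe set gave a two-sided p of 0.10, and 3 against 3 arrays allow none smaller. Any probe set whose groups do not overlap gives this value, so the test adds nothing to the separation. The call moved with the settings. Lss passed with a filter at the 60th percentile, with array weights and with the mean of its probe sets (limma adjusted p 0.041, 0.047 and 0.024), and did not pass in the other 15 of 18 alternatives that kept the threshold at 0.05, where its sign stayed negative.

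Of the 9 genes that turn lanosterol into cholesterol none passed. Cyp51, lanosterol demethylase, had a difference of 0.05 (95% interval -0.21 to 0.31), with 0.35 on a dimmer probe set (limma adjusted p = 0.35), where the Cre-labelled arrays, at 6.59, 6.54 and 6.57, all lay above the control-labelled ones, at 6.28, 6.52 and 5.85. Msmo1, Nsdhl and Hsd17b7, which act together to remove methyl groups, had 0.04, -0.07 and 0.03, and their intervals ran from -0.36 at the lowest to 0.39 at the highest. The isomerase gene Ebp had -0.24 (95% interval -0.51 to 0.04) and the desaturase gene Sc5d -0.28 on both tested probe sets (limma adjusted p 0.39 and 0.31). The sterol reductase genes Tm7sf2 and Lbr, which share a step, differed in sign. Tm7sf2 had -0.18 (95% interval -0.57 to 0.21). Lbr, which also encodes a receptor of the inner nuclear membrane, read 10.52, 10.49 and 10.77 in Cre-labelled lungs and 10.44, 10.34 and 10.38 in control-labelled lungs. It was the single member whose brightest probe set had all Cre-labelled values above the control-labelled ones, with a difference of 0.21 (95% interval -0.04 to 0.45, limma adjusted p = 0.33).

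Dhcr7, the last reductase, had the largest positive difference of the members and a wide spread. It read 6.04, 6.74 and 6.97 in Cre-labelled lungs and 6.17, 6.16 and 6.05 in control-labelled lungs. Cre-labelled replicates 2 and 3 lay above all other arrays, whereas Cre-labelled replicate 1 was the lowest of the 6. The difference was 0.46 ± 0.23 SE (95% interval -0.07 to 0.98, limma adjusted p = 0.32), and it ran from 0.26 to 0.73 in the 6 fits without 1 array. Its standard deviation in Cre-labelled lungs, 0.49 (n = 3), was matched among the members only by that of Fdps, also 0.49, where the median over members was 0.15.

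**Figure D2:**
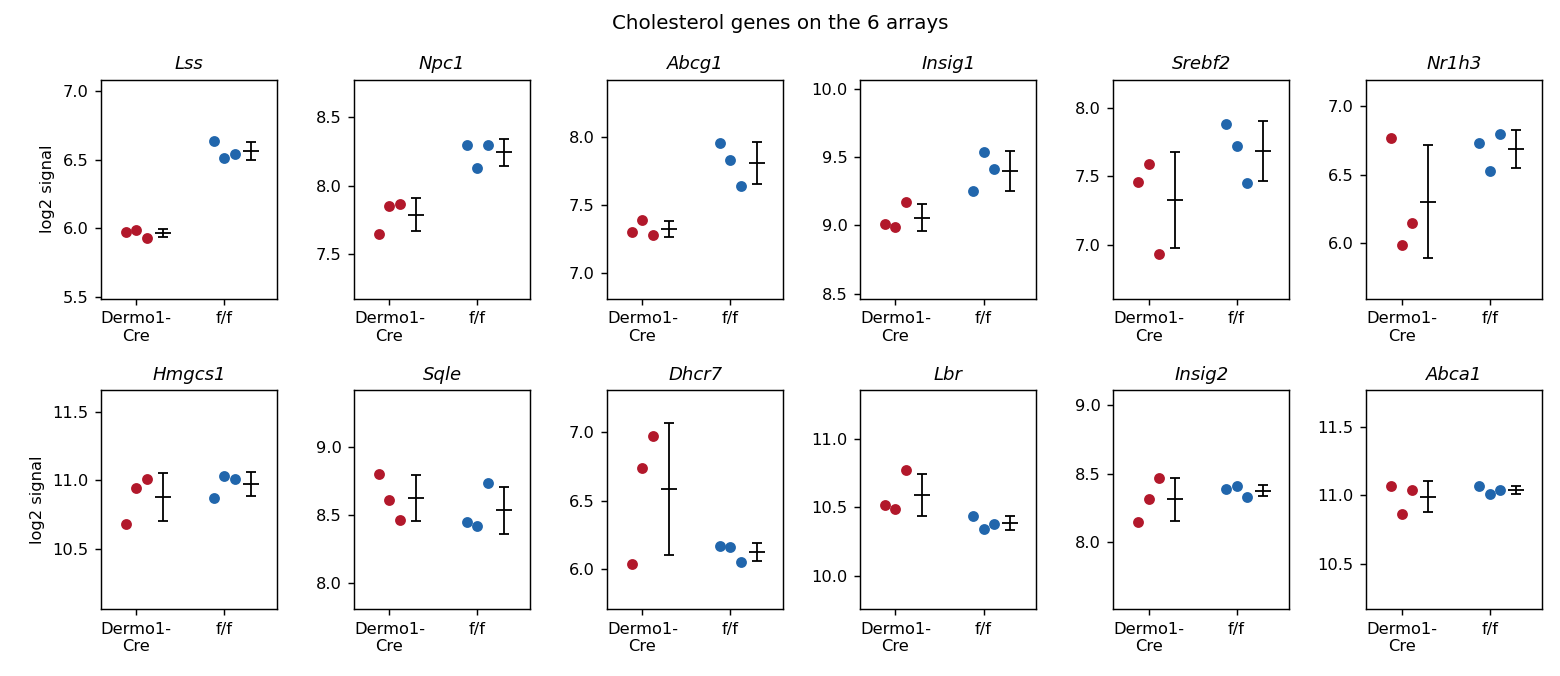
Log2 signal on each array (points) for 12 members, with the Cre-labelled lungs (red) left of the control-labelled lungs (blue) and the mean ± SD of 3 arrays beside each group; each panel has its own vertical range. Lss, Npc1, Abcg1 and Insig1 show no overlap, with Cre-labelled values lower, while Hmgcs1, Sqle, Insig2 and Abca1 overlap and Dhcr7 splits the Cre-labelled arrays.

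Promoter sequence was examined because SREBP2 acts on these genes through sterol regulatory elements next to sites for the CCAAT-binding factor NF-Y. RefSeq windows of build GRCm38.p6 were matched for 24 of the 31 listed genes, and the 250 bases before the start were searched on both strands. The CCAAT letters occurred in 15 of the 16 synthesis genes with a window (93.8%), Acat2 being the exception, against 37.5% of all 27025 genes with a window. GGGCGG, the GC box bound by SP factors, occurred in 15 of those 16 as well, against 35.4% of all. The strict element TCACNCCAC was found in 1 of the 16, Hmgcs1, against 1.22% of all, and CACGTG, the E-box, in 3 of 16 (18.8%) against 6.86%. These matches describe letters and are not measured sites. The 250 bases upstream of Hmgcs1, whose difference was near 0, are shown beside those of Lss and Insig1, whose Cre-labelled values all lay lower. Capitals mark TCACNCCAC and the CCAAT letters, here read from the opposite strand as ATTGG, and no marked matches overlap. All 3 genes lie on the plus strand, at chr13:119690101-119690350 for Hmgcs1, chr10:76531355-76531604 for Lss and chr5:28071162-28071411 for Insig1.
Hmgcs1: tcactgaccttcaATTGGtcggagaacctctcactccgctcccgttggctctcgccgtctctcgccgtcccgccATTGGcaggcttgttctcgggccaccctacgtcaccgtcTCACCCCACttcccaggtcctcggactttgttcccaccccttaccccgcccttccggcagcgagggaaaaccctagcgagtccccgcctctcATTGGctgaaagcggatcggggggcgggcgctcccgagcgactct
Lss: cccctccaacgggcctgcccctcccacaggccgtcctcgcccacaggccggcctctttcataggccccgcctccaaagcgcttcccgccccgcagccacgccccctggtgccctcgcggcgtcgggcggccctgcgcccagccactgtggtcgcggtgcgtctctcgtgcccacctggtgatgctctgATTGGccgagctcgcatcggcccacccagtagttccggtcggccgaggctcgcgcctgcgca
Insig1: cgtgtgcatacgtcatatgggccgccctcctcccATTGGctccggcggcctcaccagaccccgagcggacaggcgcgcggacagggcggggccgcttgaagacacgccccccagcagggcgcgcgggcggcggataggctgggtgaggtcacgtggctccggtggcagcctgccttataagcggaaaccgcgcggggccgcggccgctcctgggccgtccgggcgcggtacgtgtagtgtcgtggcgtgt

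Hmgcs1 carries 3 CCAAT matches besides the element, whereas Lss and Insig1 carry 1 CCAAT match each and none of the strict element in this window.

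The 4 members of SREBP2 control all had lower means in Cre-labelled lungs, and none passed. Mbtps1 and Mbtps2, outside the members, encode the proteases that cut SREBP2. On their brightest probe sets they had higher means, by 0.04 and 0.28 (limma adjusted p 0.86 and 0.23). A dimmer Mbtps1 probe set had -0.59 (limma adjusted p = 0.63). Srebf2, the gene of SREBP2 itself, read 7.46, 7.59 and 6.93 in Cre-labelled lungs and 7.88, 7.72 and 7.45 in control-labelled lungs. Cre-labelled replicate 3 was lowest and the groups overlapped, with a difference of -0.36 (95% interval -0.78 to 0.06, limma adjusted p = 0.33). Its second probe set had -0.12. Without Cre-labelled replicate 3 the difference was -0.16.

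Insig1, which holds SCAP in the endoplasmic reticulum and is itself an SREBP target, read 9.01, 8.99 and 9.17 in Cre-labelled lungs and 9.25, 9.54 and 9.41 in control-labelled lungs. The groups did not overlap. The difference was -0.34 ± 0.11 SE, a ratio of 0.79 (95% interval 0.67 to 0.93, limma adjusted p = 0.12), and it passed in none of the 18 alternatives at a threshold of 0.05. Insig2, the related gene whose level depends less on SREBP, read 8.15, 8.32 and 8.47 in Cre-labelled lungs and 8.39, 8.41 and 8.33 in control-labelled lungs, with a difference of -0.07 (95% interval -0.31 to 0.18). Scap, which escorts SREBP2, had -0.03 (95% interval -0.30 to 0.24) with the deposited scaling, and its sign turned with scaling to a common median.

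Genes that move sterol had lower means in Cre-labelled lungs as well, and none passed. Npc1, which exports cholesterol from the lysosome, read 7.65, 7.85 and 7.87 in Cre-labelled lungs and 8.30, 8.13 and 8.30 in control-labelled lungs. The groups did not overlap, and the difference was -0.45 ± 0.11 SE, a ratio of 0.73 (95% interval 0.61 to 0.87, limma adjusted p = 0.057). Npc1 passed in 3 of the 18 alternatives at that threshold, the same 3 as Lss. Scarb1, a receptor for high-density lipoprotein, had -0.13 (95% interval -0.47 to 0.21), and its other probe sets had -0.21 and 0.12. Stard4, a carrier of sterol through the cytosol, had -0.06 (95% interval -0.25 to 0.14), the narrowest interval of the members, and its groups were barely separate, at 9.71, 9.66 and 9.62 in Cre-labelled lungs against 9.71, 9.73 and 9.71 in control-labelled lungs.

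None of the 3 efflux and LXR genes passed, and all had lower means in Cre-labelled lungs. Abcg1, a pump that loads cholesterol onto high-density lipoprotein, read 7.30, 7.39 and 7.28 in Cre-labelled lungs and 7.95, 7.83 and 7.64 in control-labelled lungs. All Cre-labelled values were lower, with a difference of -0.48 ± 0.12 SE, a ratio of 0.72 (95% interval 0.59 to 0.86, limma adjusted p = 0.061). It passed with array weights (limma adjusted p = 0.037) and in none of the other 17 alternatives at a threshold of 0.05, and its dimmer probe set had -0.41 ± 0.28 SE with overlapping groups. Abca1, the pump that starts the loading of apolipoprotein A-I, read 11.07, 10.86 and 11.04 in Cre-labelled lungs and 11.07, 11.01 and 11.04 in control-labelled lungs, a difference of -0.05 (95% interval -0.29 to 0.18). The difference between these pumps was not tested.

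Nr1h3, the gene of LXR alpha, read 6.77, 5.99 and 6.15 in Cre-labelled lungs and 6.73, 6.53 and 6.80 in control-labelled lungs. Cre-labelled replicate 1 lay with the control-labelled arrays and the other Cre-labelled arrays lay below them. The difference was -0.38 (95% interval -0.86 to 0.09, limma adjusted p = 0.36), and it was -0.62 without Cre-labelled replicate 1 and -0.23 without Cre-labelled replicate 2.

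**Figure D3:**
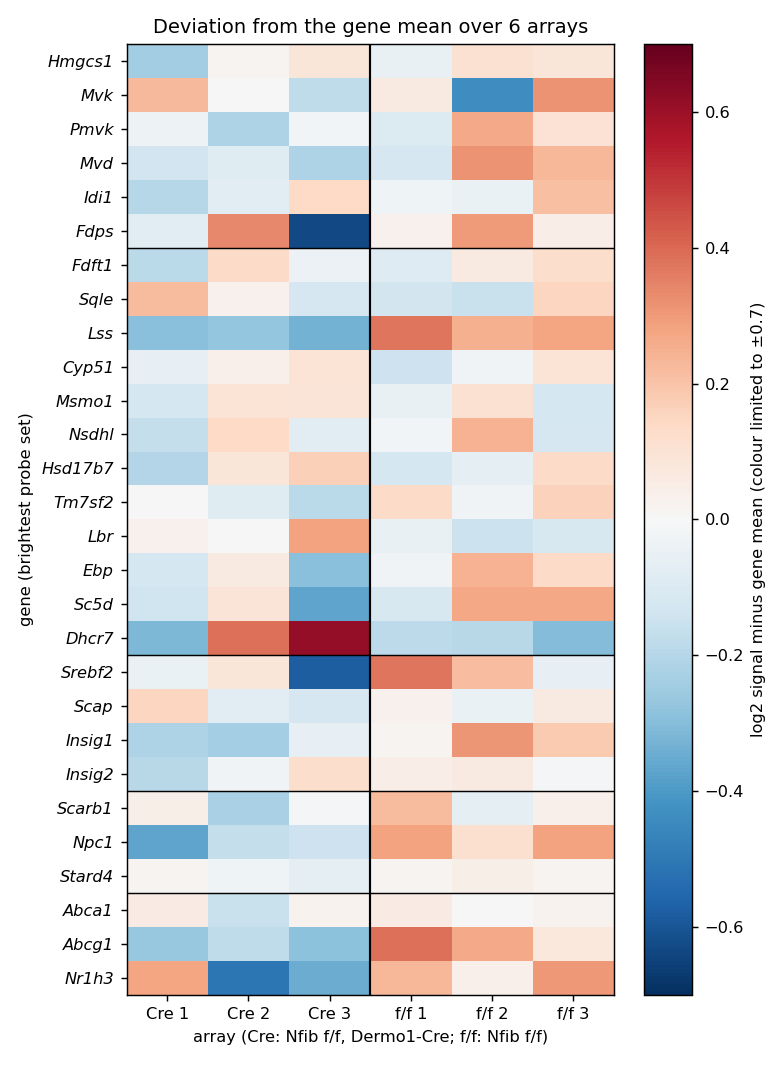
Log2 signal of each member on each array minus that gene's mean over the 6 arrays, with Cre-labelled arrays left of control-labelled arrays and lines between the 5 groups of genes (mevalonate steps at the top, then sterol steps, SREBP2 control, uptake and transport, efflux and LXR). Blue on the left and red on the right runs through Lss, Insig1, Npc1 and Abcg1, while most synthesis genes show no split.

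Averaged over its genes, each group can be followed by array as the mean deviation from the gene means. Over the 18 synthesis genes it was -0.10, 0.04 and -0.05 on the Cre-labelled arrays and -0.03, 0.06 and 0.09 on the control-labelled arrays, which overlapped. Over the 4 genes of SREBP2 control it was -0.08, -0.07 and -0.16 on the Cre-labelled arrays against 0.12, 0.14 and 0.04 on the control-labelled arrays. Over the 3 uptake and transport genes it was -0.10, -0.14 and -0.07 on the Cre-labelled arrays against 0.18, 0.03 and 0.11 on the control-labelled arrays. The efflux and LXR genes gave 0.02, -0.28 and -0.20 on the Cre-labelled arrays against 0.23, 0.10 and 0.13 on the control-labelled arrays. In these 3 smaller groups every Cre-labelled value lay below every control-labelled value. The groups hold, in turn, Insig1, Npc1 and Abcg1, each of which showed no overlap by itself. The mean over all measured members was separate as well. It was -0.09, -0.03 and -0.09 on the Cre-labelled arrays against 0.04, 0.07 and 0.09 on the control-labelled arrays. How often averages over other sets of genes separate was not computed. These averages describe the arrays and carry no test, and whether the groups of genes differ from each other was not tested.

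Probe sets of the same gene gave further readings of the difference. Their positions on the transcript were not examined here, and some may share sequence. Of 14 members with several tested probe sets, 9 had the same sign on all of them and 5 did not, namely Hmgcs1, Idi1, Hsd17b7, Scarb1 and Stard4. In those 5 the differences stayed between -0.27 and 0.29. The spread between arrays of a group was small for members, with a median pooled SD of 0.14, beside 0.17 over all genes tested.

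**Figure D4:**
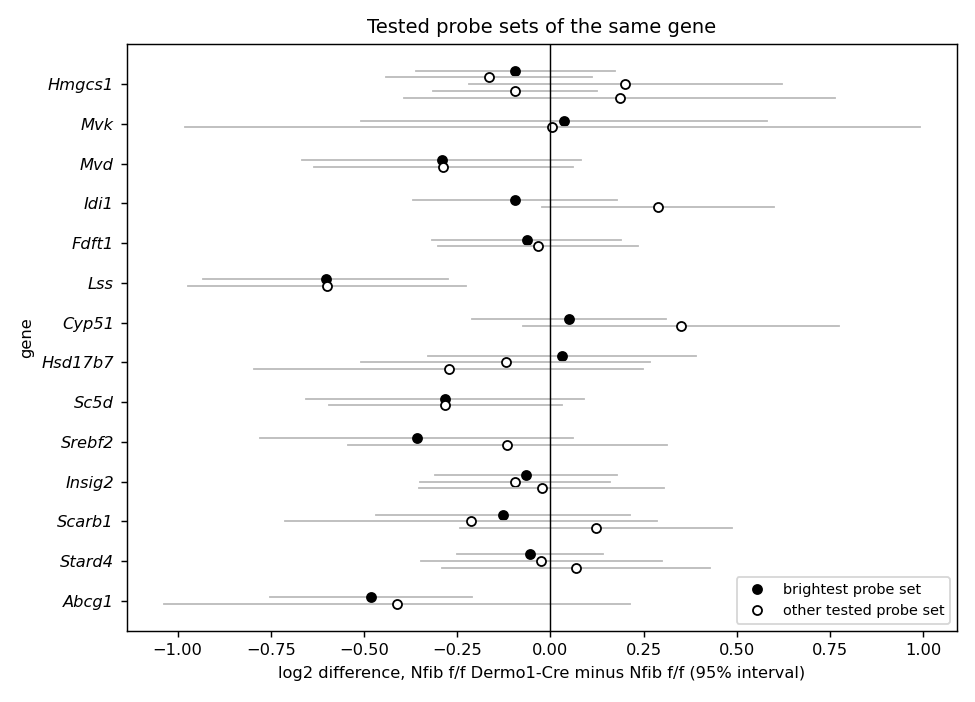
Log2 difference, Cre-labelled minus control-labelled lungs, of every tested probe set of the 14 members with more than 1, with 95% intervals in grey; filled points are the brightest probe set of a gene. The probe sets of Lss, Mvd and Sc5d lie on each other, whereas those of Hmgcs1, Idi1, Hsd17b7, Scarb1 and Stard4 fall on both sides of 0.

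Other genes of cholesterol handling came from a list of 29, of which 22 had a probe set and 21 were tested. Of these 21, 2 fell and none rose, beside 3.04% called lower and 1.92% called higher among all 12826 genes tested. Their median difference was -0.12, and the other 7 of the list were not analysed here. Apoe, the apolipoprotein that carries sterol between cells, read 9.25, 9.52 and 9.24 in Cre-labelled lungs and 9.85, 10.06 and 10.51 in control-labelled lungs. It fell by 0.80 on the log2 scale (SE 0.16), to a ratio of 0.57 (95% interval 0.44 to 0.74, limma adjusted p = 0.033). Nceh1, which frees cholesterol from its esters in the cytoplasm, read 6.74, 6.68 and 6.92 in Cre-labelled lungs against 7.48, 7.33 and 7.43 in control-labelled lungs, and fell by 0.63 (SE 0.13, limma adjusted p = 0.029). On these probe sets the groups did not overlap. Each gene passed in only 1 of the 6 fits without 1 array, Apoe without control-labelled replicate 1 and Nceh1 without Cre-labelled replicate 3. Of all 18 alternatives at a threshold of 0.05, Apoe passed in 11 and Nceh1 in 8. Neither passed without the intensity trend (limma adjusted p 0.11 and 0.071) or with a covariate from sex-linked genes. Nceh1 also did not pass with a covariate from cardiac genes, with scaling to a common median or with averaged probe sets. The dimmer Nceh1 probe sets had -0.53 and -0.30 with overlapping groups (limma adjusted p 0.20 and 0.58).

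Lipa, the lysosomal acid lipase that releases cholesterol from lipoprotein esters upstream of Npc1, had a difference of -0.41 ± 0.10 SE (limma adjusted p = 0.058) with separate groups, and passed in 4 of 18 alternatives (adjusted p 0.024 to 0.25). Vldlr, a receptor for lipoproteins rich in triglyceride, had lower means in Cre-labelled lungs on all 6 probe sets, from -0.30 to -0.66. One of these 6 passed, with 8.41, 8.78 and 8.85 in Cre-labelled lungs against 9.13, 9.51 and 9.39 in control-labelled lungs (limma adjusted p = 0.039), but not the brightest (adjusted p = 0.17), and the mean of the 6 passed as well (adjusted p = 0.021). Npc2, which hands lysosomal cholesterol to NPC1, was called on 1 of 4 probe sets (-0.71 ± 0.14 SE, limma adjusted p = 0.026), again not on the brightest, which had -0.37 (adjusted p = 0.40). The brightest Npc2 probe set passed with quantile normalization alone among 18 alternatives (-0.29, limma adjusted p = 0.033), and it ran from -0.59 without control-labelled replicate 1 to -0.11 without control-labelled replicate 3.

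Fatty acid synthesis is controlled by the sister factor SREBP1. Of 15 genes on that list 2 fell and 1 rose, beside 3.04% called lower and 1.92% called higher among all genes tested. Scd1, a fatty acid desaturase, read 9.21, 9.31 and 9.68 in Cre-labelled lungs against 10.93, 11.15 and 11.15 in control-labelled lungs, a fall of 1.68 on the log2 scale (its 95% interval -1.98 to -1.37, limma adjusted p = 0.0021). The interval of Scd1 shares no value with that of any of the 28 members. Fasn, fatty acid synthase, fell by 0.53, and the elongase gene Elovl6 rose by 1.02 (limma adjusted p 0.034 and 0.024). Fasn passed in 7 of 18 alternatives and in none of the 6 fits without 1 array (limma adjusted p 0.056 to 0.095). It also did not pass with no filter, without the intensity trend, with scaling to a common median or with either covariate. Elovl6 passed in 13 of 18, among them the fits without control-labelled replicate 1 and without control-labelled replicate 3, but not in the other 4 fits without 1 array or without the intensity trend (adjusted p 0.054 to 0.078). Srebf1 had -0.23 ± 0.11 SE and did not pass (adjusted p = 0.29).

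**Figure D5:**
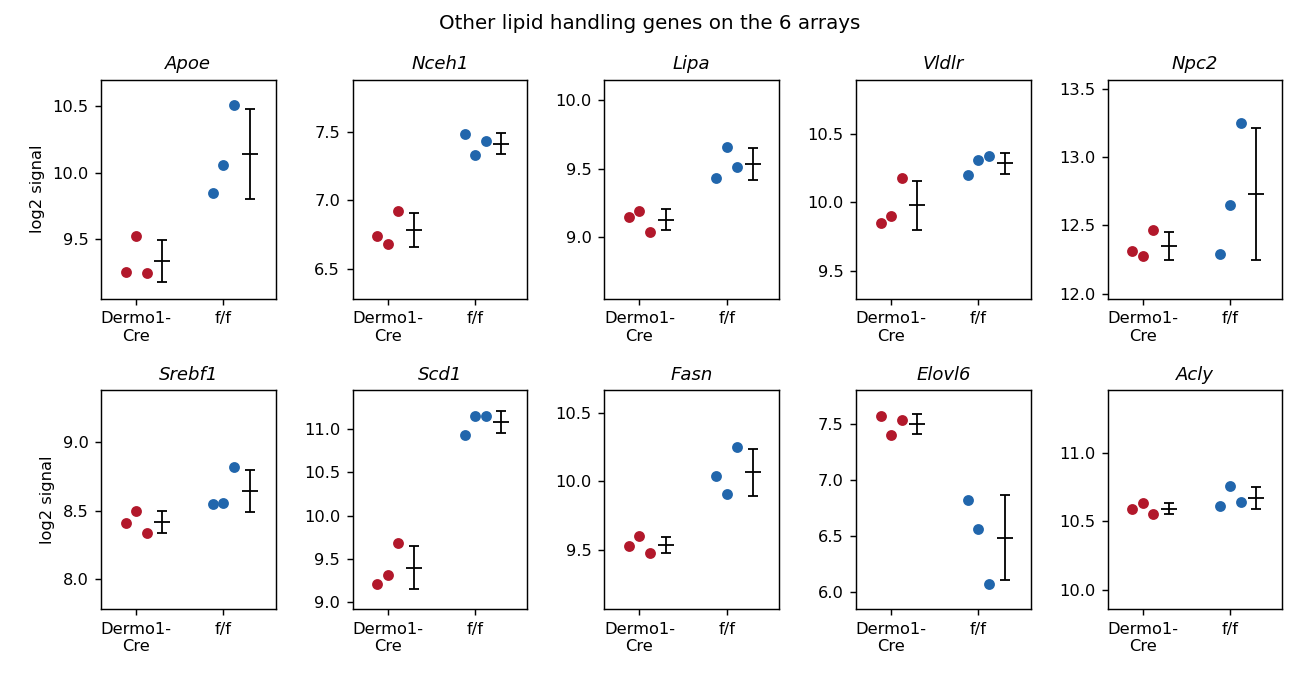
Log2 signal on each array (points) for 10 lipid genes outside the list of members, Cre-labelled lungs (red) left of control-labelled lungs (blue), with the mean ± SD of 3 arrays beside each group. Scd1 and Elovl6 show the widest gaps, in opposite directions, Apoe and Nceh1 a smaller one, and Npc2 and Acly overlap on their brightest probe sets.

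Markers of cells that use cholesterol moved with the groups to differing degrees, and their part in the values above was not tested. Among all genes tested 3.04% were called lower and 1.92% higher, and no such share was computed for sums of markers. Of 9 measured alveolar type II markers 5 fell and none rose, and their summed linear signal was 17728 to 19533 in Cre-labelled lungs against 22143 to 36314 in control-labelled lungs. The sum weighs bright genes most, and the fall was not uniform. Sftpc had -0.07 with overlapping groups (limma adjusted p = 0.93). Etv5, the 1 type II marker with a higher mean, had 0.41 with separate groups (limma adjusted p = 0.12). Macrophages are rich in Abcg1, Apoe, Npc1 and Lipa, and of their 10 markers 8 were tested and none passed. Their sums overlapped, at 1382 to 1583 in Cre-labelled against 1424 to 1776 in control-labelled lungs, and Marco and Itgam lay below the filter. Of 8 alveolar type I markers 5 fell, with sums of 14342 to 15848 in Cre-labelled against 18547 to 29070 in control-labelled lungs. Of 10 pan-epithelial markers 1 fell, with sums of 7916 to 9618 in Cre-labelled against 9499 to 11980 in control-labelled lungs. Epcam and Esrp1 had higher means in Cre-labelled lungs, by 0.32 and 0.18 (limma adjusted p 0.18 and 0.32), and the other 8 had lower means. None of 7 endothelial markers passed, though their sums did not overlap, at 5855 to 7321 in Cre-labelled against 8240 to 9303 in control-labelled lungs. Tek was the 1 endothelial marker with a higher mean, by 0.10 (limma adjusted p = 0.62). None of 8 fibroblast and lipofibroblast markers passed, with sums of 18161 to 20447 in Cre-labelled against 18331 to 22728 in control-labelled lungs. All 10 proliferation markers rose, with sums of 10426 to 11266 in Cre-labelled against 6561 to 7816 in control-labelled lungs. Cardiac muscle markers had a lower mean for 10 of 10 genes, of which 1 fell, with sums of 2120 to 5131 in Cre-labelled against 3662 to 12556 in control-labelled lungs. Of 6 erythroid markers 2 were tested and neither passed, and the sums of the 4 with a probe set did not overlap, at 446 to 830 in Cre-labelled against 945 to 1088 in control-labelled lungs. Of 9 liver markers 8 had a probe set and 5 were tested, none passed, and the sums were 110 to 491 in Cre-labelled against 76 to 971 in control-labelled lungs.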

How the data were processed

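Log2 signals for 6 lungs were used as deposited by the authors. MAS5 and affy are named, with no version, per the submitters' processing notes, and the 2% trimmed mean of the linear signal was 150.04 to 150.05 on every array. MAS5 values far below 4 are noisy. Of 45101 probe sets, 64 controls were left out, and 34945 of the rest carried 1 gene symbol, 932 several and 9160 none. Gene names were updated through a RefSeq table (GRCm38.p6) that held 34741 of them. For 27022 probe sets whose mean reached the 40th percentile (4.00), limma 3.58.1 in R 4.3.3 was fitted with an intensity trend and no covariates. P-values were two-sided and were adjusted by Benjamini-Hochberg over every tested probe set, with a threshold of 0.05. The fit had 4 residual degrees of freedom, to which eBayes added 5.32. The fit was tested on simulated data.

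The members, gene lists and tests were chosen with earlier results of these data known. Every member is named. Array values are given for Hmgcs1, Sqle, Srebf2, Insig1, Insig2, Abca1, Abcg1, Nr1h3 and the 3 largest differences in each direction. From the other lists, genes past the threshold on the brightest probe set and Srebf1 are named. Vldlr and Npc2 are named for a dimmer probe set past it. Lipa, Acly, Mbtps1 and Mbtps2, which are not past it, were picked after their values were seen. So were the array values of Fdps, Stard4, dimmer probe sets and genes outside the members. Alternatives covered scaling, offsets of 16 and 64, the filter, array weights, the trend, a block for the replicate number, covariates from cardiac and sex-linked genes, each array left out, an adjusted p of 0.10 and averaged probe sets. Labels call the lungs biological replicates. Figures used matplotlib 3.10.9.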

Additional observations from a re-analysis of the deposited data

How the results depend on the processing

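The count of 0 members past the threshold held in the fits with quantile normalization, scaling to a common median, both offsets, no filter, no intensity trend, the replicate block, either covariate and each array left out. It was 2 with a filter at the 60th percentile, 3 with array weights, 3 at an adjusted p of 0.10 and 2 with averaged probe sets. The median difference of the members stayed between -0.14 and -0.06. Probe sets past the threshold across the array fell from 963 to 171 without the intensity trend, to 528 and 597 with the cardiac or the sex score added as a term, and to between 314 and 495 without 1 array; 2120 passed at an adjusted p of 0.10. The cause of these shifts was not tested.

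With the replicate number as a block 1309 probe sets passed and no member's call changed, while Lipa passed (adjusted p = 0.049). Deviations of same-numbered arrays correlated at -0.01, 0.20 and 0.14 for numbers 1, 2 and 3. Cre-labelled replicates 2 and 3 each correlated best with the control-labelled array of the same number. Cre-labelled replicate 1 correlated best with control-labelled replicate 3 (0.14). With 3 arrays in each group, such weak correlations cannot settle whether the numbers pair the lungs.

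Small differences changed sign under some settings. With the cardiac score added the values were -0.20 for Mvk, -0.13 for Sqle, -0.00030 for Cyp51 and 0.058 for Insig2. With averaged probe sets they were 0.0065 for Hmgcs1, 0.097 for Idi1 and -0.12 for Hsd17b7, and with scaling to a common median 0.0035 for Scap. Without 1 array the range was -0.16 to 0.0038 for Hmgcs1, -0.17 to 0.20 for Mvk, -0.48 to 0.0067 for Fdps, -0.14 to 0.017 for Fdft1, -0.012 to 0.11 for Cyp51, -0.0064 to 0.12 for Msmo1, -0.15 to 0.036 for Nsdhl, -0.042 to 0.14 for Hsd17b7, -0.11 to 0.020 for Scap, -0.14 to 0.014 for Insig2 and -0.091 to 0.010 for Abca1. Of the 60 probe sets of members, 11 lay below the filter and were not tested.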
